A study of Mus musculus with 6 samples.

Results

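Potassium channel genes were examined in the hippocampus of mice with 1 disrupted allele of the gene for TonEBP and of their wild-type littermates. Rows were chosen by symbol: those beginning with Kcn, the stem given to potassium channel subunits, and reaching a level of 1 or more in at least 3 of 6 libraries. Of 24346 symbols listed per library 98 began with Kcn, and 69 of these met the level rule, among 13122 genes that met it in all. The 69 comprised 66 protein-coding genes and 3 noncoding transcripts, and 0 of the 66 coding genes met the rule through 1 genotype alone. Levels are given in units that behave as FPKM (fragments per kilobase, corrected for library depth), so genes can be compared per length.

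The wild-type group (WT, 3 libraries) and the TonEBP+/- group (HET, 3 libraries) came from 12-month-old C57BL/6 mice. Heterozygous parents on a C57BL/6J background produced both genotypes, and the labels name no promoter or cell type to which the disruption was restricted. No treatment is named for either group. Replicate numbers run from 1 to 3 in each genotype, and nothing in the labels states that each number is a separate animal, so p-values measure the spread between these samples. TonEBP, a tonicity-responsive transcription factor related to the NFAT proteins, is the product of Nfat5. Nfat5 was at 10.5, 8.39 and 9.72 in WT 1 to WT 3 and at 8.25, 9.31 and 8.42 in HET 1 to HET 3. These ranges overlapped (two-sided exact permutation p = 0.3), and the disrupted exons are not named in the labels, so this value does not check the genotypes.

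Potassium channels let potassium ions leave the cell, which sets the resting potential, ends the action potential and spaces repeated firing. Voltage-gated channels are assembled from subunits of the Kcna, Kcnb, Kcnc, Kcnd, Kcnh and Kcnq subfamilies. Subunits of Kcnf, Kcng, Kcns and Kcnv form no channel alone and alter those of Kcnb. Kcnj genes encode inward rectifiers, Kcnk genes tandem pore domain leak channels, and Kcnma, Kcnn and Kcnt genes channels opened by calcium or sodium, while Kcnab, Kcne, Kcnip and Kcnmb encode auxiliary subunits. In the hippocampus, channels of Kcnd with Kcnip proteins damp signals in pyramidal dendrites, channels of Kcnc allow fast-spiking interneurons to fire at high rates, and Kcnj10 clears extracellular potassium into astrocytes.

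Some libraries stood apart in markers of neighbouring tissues. Of 15 markers of thalamus and habenula, tissue that borders the hippocampus, 13 met the level rule and 13 of 13 had lower values in HET. Their summed level was 249 to 293 in WT and 281 in HET 1, but 154 in HET 2 and 145 in HET 3. The defining habenular marker Pou4f1 was near 0, at no more than 0.162 in any library. The 6 choroid plexus markers summed to 281, 1051 and 2870 in WT and to 96.2, 1778 and 3427 in HET, with no separation of the genotypes. Hippocampal markers were present throughout. Genotypes did not overlap in 1 of 4 CA1 markers, 2 of 5 CA3 and CA2 markers and 1 of 7 dentate gyrus markers. The share over all genes was 8.52%. The CA1 gene Mpped1 was at 30.5 to 32.3 in WT and 33.5 to 37.0 in HET, and 4 of 4 CA1 markers were above 0. Of 7 dentate gyrus markers 6 were below 0, with Prox1 at 13.1 to 14.6 and 11.2 to 14.2. Calb1, the dentate gyrus marker without overlap, was at 41.4 to 46.9 in WT and 38.5 to 40.4 in HET. Pcp4, abundant in CA2, was at 171 to 235 in WT and 109 to 162 in HET (ratio 0.649). It was 1 of 5 CA3 and CA2 markers, of which 4 were below 0 and 1 above (median -0.07). Among the others, Rgs14 had a ratio of 0.953, Grik4 of 0.994 and Nptx1 of 1.08. As in Pcp4, all HET libraries lay below all WT libraries in Rgs14. None of these markers passed the adjusted test, and the part of regional make-up in the members' values was not tested beyond the use of thalamus markers as a covariate. The number of fragments per library, estimated from the spacing of low values, was 7740000 (HET 1) to 12500000 (HET 3), and 1 fragment in 1 kb of transcript then equals 0.0797 to 0.129 on the level scale. In whole tissue, fewer cells of a type and less RNA per cell cannot be told apart.

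The promoters shown here belong to the member with the smallest p (Kcnip4), to a member that lay apart between genotypes and carries the motif searched (Kcne1l), and to the 2 members that varied together across libraries (Kcnj13 and Kcne2). They were taken from the RefSeq table of GRCm38.p6, which lists starts for 51 of the 69 members. Where a gene has 2 listed starts, a window holding the motif was shown. Each is the 250 bases before a start, 5′ to 3′ on the strand of the gene. Capitals mark TGGAAA, the invariant core of the tonicity-responsive element that TonEBP binds, or its reverse complement TTTCCA. The Kcnip4 window is chr5:49285660-49285909 on the minus strand, before 1 of 2 listed starts and within the annotated gene. The Kcne1l window is chrX:142306199-142306448 on the minus strand, that of Kcnj13 is chr1:87394730-87394979 on the minus strand, and that of Kcne2 is chr16:92292139-92292388 on the plus strand, before the upstream of 2 starts.
Kcnip4: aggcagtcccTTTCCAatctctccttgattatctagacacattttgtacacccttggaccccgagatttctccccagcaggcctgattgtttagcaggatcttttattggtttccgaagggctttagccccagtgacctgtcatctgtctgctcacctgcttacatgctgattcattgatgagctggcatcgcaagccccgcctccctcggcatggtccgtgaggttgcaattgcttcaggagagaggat
Kcne1l: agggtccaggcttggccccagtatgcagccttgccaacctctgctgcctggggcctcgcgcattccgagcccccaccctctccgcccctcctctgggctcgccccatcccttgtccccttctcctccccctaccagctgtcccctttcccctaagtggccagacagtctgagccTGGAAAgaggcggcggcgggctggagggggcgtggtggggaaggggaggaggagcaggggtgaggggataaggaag
Kcnj13: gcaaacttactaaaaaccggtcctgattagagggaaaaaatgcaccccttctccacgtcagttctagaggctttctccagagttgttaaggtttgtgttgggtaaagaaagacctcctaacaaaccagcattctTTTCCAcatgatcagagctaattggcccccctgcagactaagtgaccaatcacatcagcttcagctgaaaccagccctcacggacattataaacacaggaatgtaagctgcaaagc
Kcne2: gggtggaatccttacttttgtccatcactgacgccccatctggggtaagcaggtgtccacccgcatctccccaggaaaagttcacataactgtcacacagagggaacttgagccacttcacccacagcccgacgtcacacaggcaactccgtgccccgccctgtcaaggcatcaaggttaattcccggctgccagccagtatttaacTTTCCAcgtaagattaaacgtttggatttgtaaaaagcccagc

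The core lay 240 bases before the start in Kcnip4, 76 in Kcne1l, 116 in Kcnj13 and 43 in Kcne2, as TTTCCA in Kcnip4, Kcnj13 and Kcne2 and as TGGAAA in Kcne1l. Searched on both strands, it was found in 14 of the 75 promoters listed for members (18.7%) and in 6104 of all 32851 promoters of the same length (18.6%). The share among members was thus that of promoters at large. A match of these letters is a description of the sequence and was not tested for binding.

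Levels of the members spanned more than 2 orders of magnitude. Kcnab2, a cytoplasmic beta subunit of Kcna channels, was the highest at a mean of 192 over the 6 libraries and made up 17.4% of the summed level of the 69 members. It was followed by the other main beta subunit Kcnab1 at 47.4, the astrocytic inward rectifier Kcnj10 at 45.1, the leak channel Kcnk1 at 37.5 and the calcium-sensing Kcnip3 at 37.5. The values of neighbours in this order overlapped between libraries: Kcnab1 ranged from 43.6 to 50.4 and Kcnj10 from 37.6 to 50.7. The 10 highest members held 47.0% of the summed level, 18 members were at 20 or more, 30 between 5 and 20, and 21 under 5. The median member was at 8.49.

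The other 29 rows did not meet the rule. Just outside it were, among others, Kcnj8, the pore subunit of ATP-sensitive channels of pericytes, with 2 libraries at 1 or more (1.46, 1.40 and 0.926 in WT; 0.844, 0.717 and 0.814 in HET), and Kcnd1, Kcnj14 and Kcnk6 with 1 library each. Just inside it was Kcne4, with 4 libraries at 1 or more (1.03, 1.04 and 1.38 in WT; 1.33, 0.810 and 0.498 in HET). No value of the 29 exceeded 1.46. They included Kcna5, Kcna7 and Kcna10, Kcne1 and Kcne3, Kcnh4, Kcnh6 and Kcnh8, Kcnj1, Kcnj5 and Kcnj15, Kcnk5, Kcnk7, Kcnk15, Kcnk16 and Kcnk18, Kcnmb1 and Kcnmb3, Kcnn4, Kcnq1, Kcnrg, Kcnu1, Kcnv2 and the antisense transcript Kcnd3os. Kcnj1, Kcnk16 and Kcnmb3 were listed at 0 in every library.

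**Figure D1:**
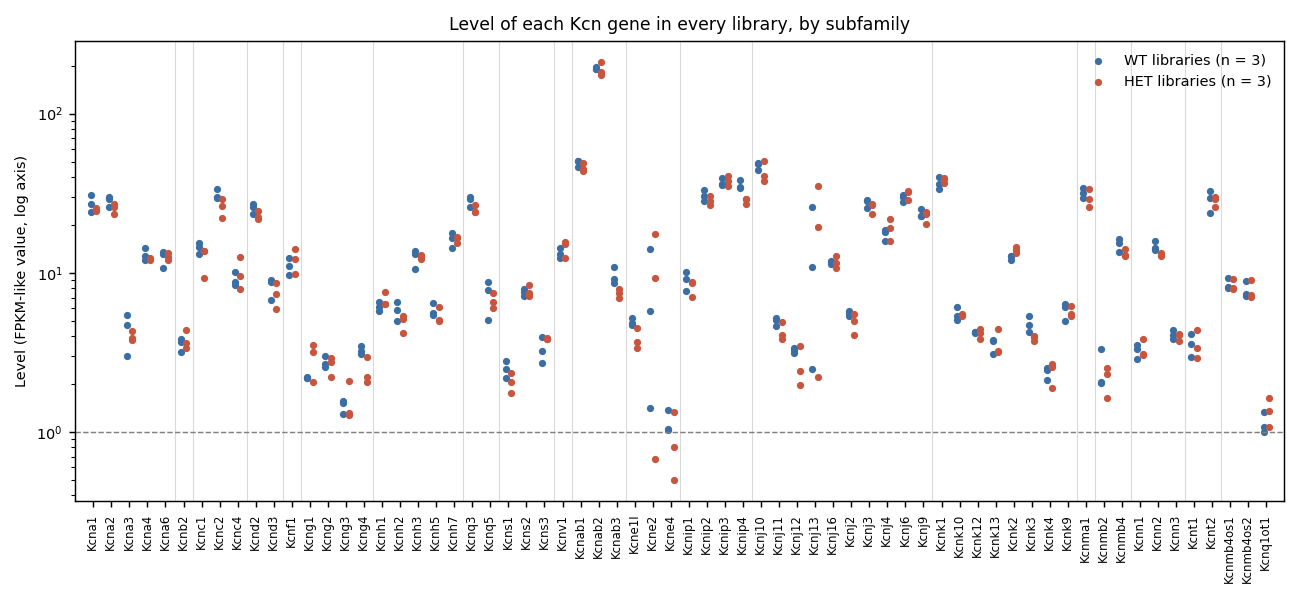
Level of 66 Kcn genes in every library on a log axis, ordered by subfamily, with WT libraries in blue and HET libraries in red (3 points each). The dashed line is the level of 1 used by the rule. Most genes form tight columns of 6 points, and Kcnj13 and Kcne2 spread far more widely in both genotypes.

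Between genotypes, 0 of the 69 members passed an adjusted p of 0.05 in limma, a linear model with moderated variances fitted across all 13122 genes, and all 69 had an adjusted p = 1.00. Among all genes 0 passed as well (0% called). In limma, 6 members (8.70% of the 69) had an unadjusted p under 0.05, where 3.69% of all genes (484) did. All 6 were lower in HET, against 1.84% of all genes lower and 1.85% higher at that level, and 0 members were higher. The count was 12 without WT 2 (17.4%, against 5.43% of all genes), 11 without HET 1 (15.9%, against 5.19%), and 4 or 5 without any other library (5.80% to 7.25%, against 2.83% to 3.73%). All 3 libraries of 1 genotype lay beyond all 3 of the other in 8 members (11.6%), where 8.52% of all genes did. Of these, 7 were lower in HET (10.1%, against 4.39% of all genes) and 1 higher (1.45%, against 4.13%). With 1 library left out, separation is easier for every gene. Members apart were then 24 without WT 2 (34.8%, against 21.7% of all genes) and 21 without HET 1 (30.4%, against 20%). Without WT 3 they were 11, a lower share than that of all genes (15.9%, against 18.1%). Without any other library they were 12 or 13 (17.4% to 18.8%, against 15.5% to 17.2%). In each of the 8 a two-sided exact permutation p of 0.1 was obtained, the smallest that 3 against 3 libraries allow.

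Small shifts below 0 were more common than above. The fitted log2 difference, HET minus WT, was below 0 in 45 of 69 members (65.2%), where 50.0% of all genes were. The median over members was -0.05, beside 0.00 over all genes, and the median standard error of 1 member was 0.105. All 69 differences were under 0.5 in size and 57 were under 0.2. The median moved between -0.03 (without WT 3) and -0.09 (without WT 2) when single libraries were left out. HET 3 was the lowest library in 23 members (33.3%, against 13.6% of all genes) and WT 3 the highest in 20 (29.0%, against 16.2%). HET 3 is also the library with the lowest thalamus and habenula marker sum. With the mean log2 level of those markers as a covariate in the fit 41 of 69 members were below 0 (median -0.04). That mean was 3.98 in HET 1, within the WT range of 3.89 to 3.99, but 3.26 in HET 2 and 3.16 in HET 3. Differences fitted with this covariate therefore rest mainly on HET 1 against WT.

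**Figure D2:**
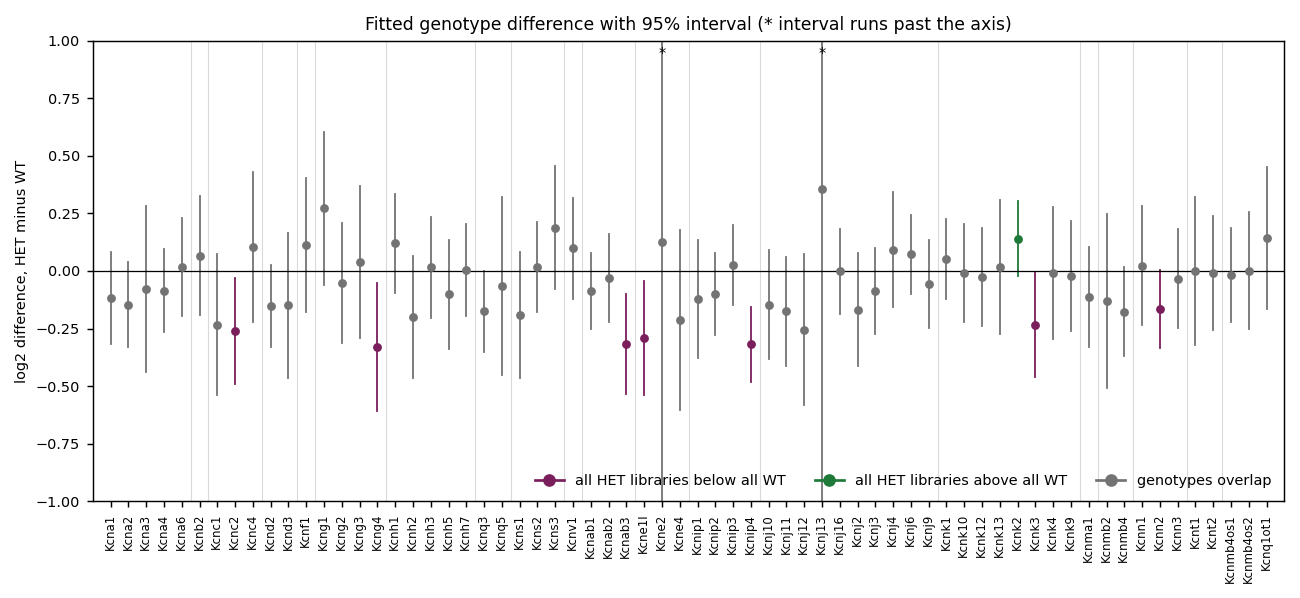
Fitted log2 difference, HET minus WT, of 66 Kcn genes with 95% intervals from limma, ordered by subfamily. Purple marks the 7 genes with all HET libraries below all WT libraries, green the 1 gene with all above, and the intervals of Kcne2 and Kcnj13 run past the axis.

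The Kcnip subfamily encodes calcium-binding proteins that bring Kcnd channels to the membrane and set their inactivation. Kcnip4 (chromosome 5, 48389503 to 49525122, GRCm38.p6) was at 38.1, 34.5 and 34.2 in WT 1 to WT 3 and at 29.3, 28.9 and 26.9 in HET 1 to HET 3. Every HET library lay below every WT library, and the 3 HET values were close to each other. Means were 35.6 ± 2.16 and 28.4 ± 1.28 (SD, n = 3 each), with a ratio of 0.796 and a log2 difference of -0.32 (SE 0.0725, 95% interval -0.48 to -0.16). It was the smallest p among members, and with 1 library left out the difference ran from -0.27 to -0.35. The gene overlaps the opposite-strand model 5730480H06Rik, and the labels are silent on strand use in counting.

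The other Kcnip genes had smaller differences. Kcnip2 was at 28.5 to 33.2 in WT and 26.8 to 30.3 in HET, and Kcnip3, which also acts as a transcriptional repressor, at 35.6 to 39.7 and 35.1 to 40.6. Kcnip1 was at 7.64 to 10.2 and 7.07 to 8.70. Genotypes overlapped in all 3 genes. Kcnip4 made up a smaller part of the summed Kcnip level in every HET library (0.273, 0.279 and 0.276) than in any WT library (0.332, 0.309 and 0.311), a ratio formed after the values were seen. The summed Kcnip level over that of Kcnd2 and Kcnd3 did not separate the genotypes (3.35 ± 0.324 in WT and 3.41 ± 0.190 in HET, SD, n = 3 each). Kcnd2, the main A-type pore subunit of pyramidal dendrites, was at 26.0, 23.4 and 27.1 in WT and at 22.5, 21.7 and 24.4 in HET (log2 difference -0.15, SE 0.0797). Kcnd3 ranged from 6.71 to 9.07 and from 5.94 to 8.58.

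Beta subunits of the Kcnab subfamily bind the Kcna channels, and some but not all of them speed channel inactivation. Kcnab3 (chromosome 11, 69326258 to 69333041) was at 8.69, 9.14 and 10.8 in WT and at 6.99, 7.89 and 7.43 in HET. The genotypes lay apart. The log2 difference was -0.32 (SE 0.0970, 95% interval -0.54 to -0.10), and it ran from -0.23 to -0.38 with 1 library left out. Kcnab1 (46.0 to 50.4 against 43.6 to 49.3) and Kcnab2 (191 to 197 against 175 to 212) overlapped, and HET 1 held the highest Kcnab2 value of all libraries.

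The Kcna genes encode subunits of channels found in axons and terminals. Of 5 members 4 had a difference below 0, and in 0 of the 5 did the genotypes lie apart. Kcna2 was at 29.2, 26.1 and 29.9 in WT and 26.1, 27.3 and 23.4 in HET (log2 difference -0.15, SE 0.0830), and Kcna1 at 27.2, 24.1 and 30.9 against 24.6, 25.0 and 25.6 (-0.12, SE 0.0900). WT 2 lay within the HET range for Kcna2 and below it for Kcna1. Kcna1 and Kcna2, which assemble with each other, were near equal in level, with a ratio of 0.962 ± 0.0624 in WT and 0.985 ± 0.0959 in HET (SD, n = 3 each). Kcna4, Kcna6 and Kcna3 ranged over all libraries from 12.0 to 14.3, from 10.7 to 13.6 and from 3.02 to 5.45.

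Kcnc genes encode the fast delayed rectifiers that permit short action potentials. Kcnc2 (chromosome 10, 112269898 to 112466304), the highest of the 4, was at 29.9, 29.5 and 33.4 in WT and at 29.2, 26.2 and 22.0 in HET. HET 1 was just below the lowest WT library and HET 3 clearly below it. The log2 difference was -0.26 (SE 0.103, 95% interval -0.49 to -0.03), and -0.15 without HET 3. Kcnc1 showed the low value in HET 3 alone, with 14.6, 13.1 and 15.3 in WT and 13.6, 13.6 and 9.31 in HET (log2 difference -0.23, SE 0.136, and -0.06 without HET 3). Kcnc4 pointed the other way, with its highest value of 12.6 in HET 2 (0.10, SE 0.144), but its sign rested on that library. The difference was -0.06 without HET 2, and -0.13 with the thalamus markers as a covariate.

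The order HET 1 above HET 2 above HET 3 was seen in 16 members (23.2%, against 14.2% of all genes), in subfamilies that included Kcne, Kcng, Kcnip, Kcnj, Kcnk and Kcnmb. HET 2 and HET 3, but not HET 1, lay below every WT library in 11 members (15.9%, against 5.53% of all genes), among them Kcne4, Kcnip2 and Kcnk12. Both patterns were counted after the values were seen. Kcng4, a modifier of Kcnb channels, was at 3.10, 3.25 and 3.49 in WT and at 2.98, 2.23 and 2.07 in HET (log2 difference -0.33, SE 0.124, 95% interval -0.61 to -0.05). The strong inward rectifier Kcnj12 was at 3.27, 3.39 and 3.13 against 3.47, 2.43 and 1.98 (-0.26, SE 0.147). Kcnj10 was at 48.2, 49.1 and 44.4 against 50.7, 40.3 and 37.6 (-0.15, SE 0.105). HET 1 lay just below the WT range in Kcng4 and just above it in the other two, while HET 2 and HET 3 lay below it in all 3, as they did for the thalamus and habenula markers. With that covariate the log2 difference was -0.08 for Kcnc2 (SE 0.116), -0.06 for Kcnc1, -0.12 for Kcng4, 0.05 for Kcnj12 and 0.08 for Kcnj10. These genes were picked after the values were seen, for low values in HET 3 or in HET 2 and HET 3. A smaller difference with a covariate of that pattern follows from the choice. With the same covariate, which leaves mainly HET 1 against WT, the log2 difference was -0.28 for Kcnip4 (SE 0.102) and -0.38 for Kcnab3 (SE 0.135). It was larger in size for Kcnj2 (-0.36, from -0.17) and Kcnma1 (-0.27, from -0.11), and of the 69 members 40 had a larger and 29 a smaller difference in size with the covariate. Pvalb, a gene of fast-spiking interneurons that thalamic cells also express, was at 82.4, 128 and 94.4 in WT and at 73.2, 74.1 and 72.6 in HET, and it was the 1 gene of 9 interneuron markers that lay apart. Of the 9, 6 were below 0 and 3 above (median -0.05). The log2 difference was -0.29 for Gad1, -0.22 for Gad2, -0.05 for Slc32a1, 0.13 for Npy and 0.19 for Vip. The part of these markers in the Kcnc values was not tested.

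**Figure D3:**
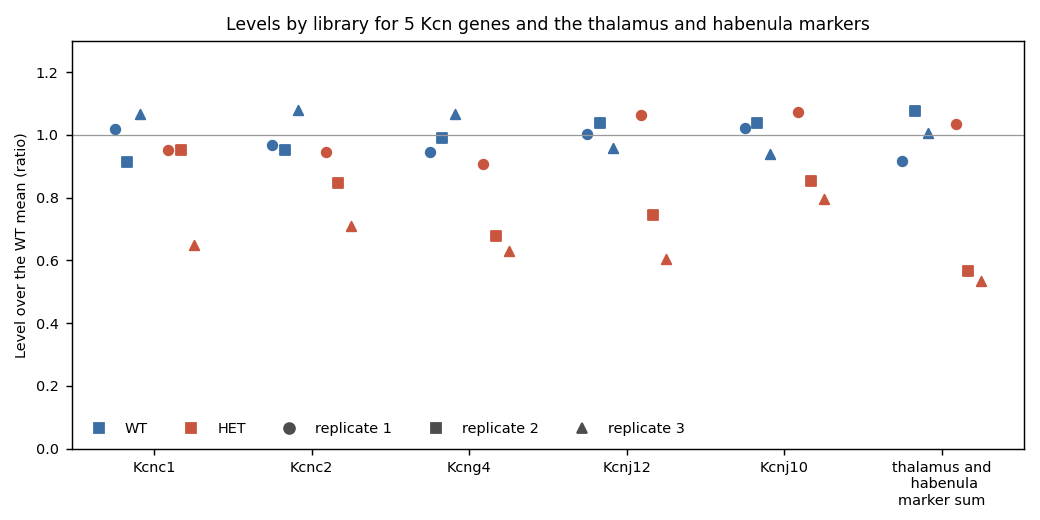
Level of 5 Kcn genes and summed level of the thalamus and habenula markers in every library, divided by the WT mean (blue, WT; red, HET; circle, square and triangle, replicates 1 to 3). HET 3 is the lowest point in every column, HET 2 lies below every WT point except in Kcnc1, and HET 1 stays near the WT points. The genes were picked after the values were seen, for low values in HET 3 or in HET 2 and HET 3.

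The other voltage-gated pore subunits described here overlapped between genotypes. The M-channel, formed by Kcnq subunits, restrains repeated firing. Kcnq3 was at 29.8, 25.9 and 29.3 in WT and 26.6, 24.2 and 24.1 in HET (log2 difference -0.18, SE 0.0787), with HET 1 above WT 2. Kcnq5 was at 5.03 to 8.74 against 6.06 to 7.48. The delayed rectifier gene Kcnb2 ranged from 3.18 to 3.82 and from 3.35 to 4.38. Of the Kcnh genes, the ether-a-go-go family, Kcnh7 was the highest (14.3 to 17.9 against 15.5 to 16.8, log2 difference 0.00), followed by Kcnh3 (12.5), Kcnh1 (6.46), Kcnh5 (5.63) and Kcnh2 (5.34) by mean level. Kcnh1 was at 6.54, 6.10 and 5.79 in WT and 6.33, 6.41 and 7.60 in HET (0.12, SE 0.0963).

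Subunits that modify Kcnb channels lay on both sides of 0. Kcnf1 was the second highest of them, with 11.1, 9.69 and 12.4 in WT and 9.85, 14.2 and 12.2 in HET (log2 difference 0.11, SE 0.130), after Kcnv1 with 14.4, 13.2 and 12.5 against 12.5, 15.7 and 15.1 (0.10, SE 0.0978). Kcng1 was nearly constant in WT at 2.20, 2.18 and 2.22 and was at 3.17, 3.52 and 2.06 in HET (0.27, SE 0.148), so that HET 3 lay below the WT range and the other 2 above it. Kcns3 was at 2.71, 3.95 and 3.25 against 3.86, 3.84 and 3.91 (0.19, SE 0.120), where WT 2 exceeded every HET library. Kcns2 (7.62), Kcng2 (2.68), Kcns1 (2.27) and Kcng3 (1.52), by mean level, had differences between -0.19 and 0.04.

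Kcnj13 and Kcne2 varied far more between libraries than by genotype. Kcnj13, an inward rectifier of transporting epithelia, was at 10.8, 26.0 and 2.49 in WT and at 19.3, 2.21 and 35.0 in HET. Kcne2, an accessory subunit that choroid plexus epithelium expresses, was at 5.72, 14.1 and 1.42 in WT and at 9.29, 0.674 and 17.6 in HET. The highest library exceeded the lowest 15.8-fold for Kcnj13 and 26.1-fold for Kcne2. Across the members 4 had a ratio above 2 (5.80%, against 7.19% of all genes), the others being Kcne4 (2.78) and Kcnmb2 (2.03), both at low levels, and the median ratio was 1.35.

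Both genes placed the 6 libraries in 1 order, HET 3, WT 2, HET 1, WT 1, WT 3 and HET 2 from high to low. The choroid plexus markers Ttr, Clic6, Folr1, Kl, Aqp1 and Otx2 each gave that order too. Ttr, the transthyretin gene and the most abundant of them, ran from 87.4 in HET 2 to 3338 in HET 3. The ratio of Kcnj13 to Kcne2 was 1.75 to 2.08 in 5 libraries and 3.29 in HET 2, where both genes were lowest. Relative to the choroid plexus marker sum, Kcnj13 was higher in HET 2 than in any other library. Kcnj13 overlaps the opposite-strand gene Gigyf2, and whether reads of Gigyf2 add to its level was not tested. Genotype differences of Kcnj13 and Kcne2 had wide intervals (log2 0.36, SE 1.33, and 0.13, SE 1.27). Both changed sign with the library left out. For Kcnj13 the difference ran from -0.43 (without WT 3) to 1.38 (without HET 2), and for Kcne2 from -0.59 (without HET 3) to 1.14 (without HET 2).

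**Figure D4:**
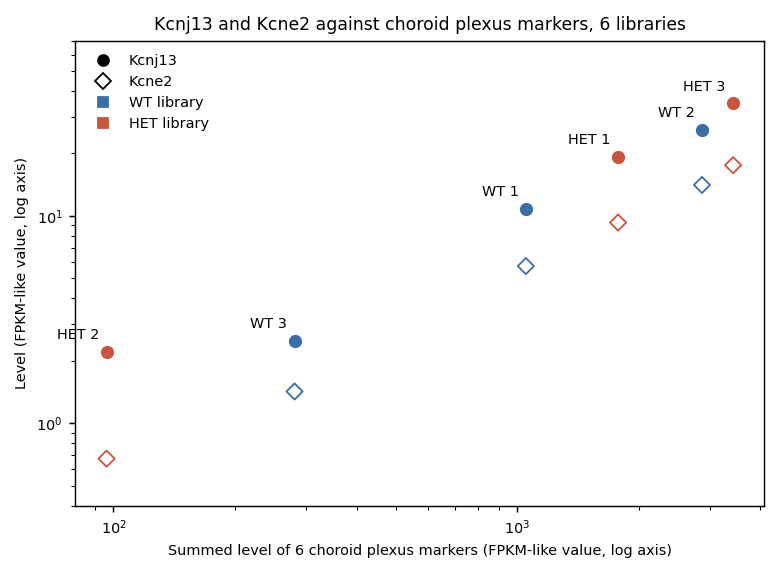
Level of Kcnj13 (filled circles) and Kcne2 (open diamonds) against the summed level of 6 choroid plexus markers in the 6 libraries, both axes on a log scale, WT in blue and HET in red. Both genes climb with the marker sum from HET 2 to HET 3, and the genotypes alternate along the axis.

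The third Kcne gene above the rule after Kcne2 and Kcne4 was Kcne1l, an X-linked subunit gene also called Kcne5. Kcne1l (chromosome X, 142304753 to 142306198) was at 5.19, 4.70 and 4.87 in WT and at 3.68, 3.37 and 4.52 in HET. HET 3 came near the lowest WT library and the other 2 HET libraries lay well below. The log2 difference was -0.29 (SE 0.111, 95% interval -0.54 to -0.04), -0.22 without HET 2 and -0.36 with the thalamus covariate.

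Among inward rectifiers, Kcnj3, Kcnj6 and Kcnj9 encode the G-protein-gated channels that GABA-B and adenosine receptors open. Kcnj6 was at 27.8, 30.8 and 30.2 in WT and 32.0, 28.8 and 32.7 in HET (log2 difference 0.07, SE 0.0766), Kcnj3 at 25.4 to 28.8 against 23.4 to 27.3, and Kcnj9 at 22.7 to 25.2 against 20.3 to 24.3. The 3 genes stood at similar levels and overlapped between genotypes. Kcnj16, which joins Kcnj10 in astrocyte channels, was constant at 11.4 to 11.9 in WT and 10.7 to 12.8 in HET (-0.00, SE 0.0825). The ratio of Kcnj16 to Kcnj10 was 0.242 to 0.256 in WT and 0.227, 0.317 and 0.285 in HET. The summed level of the astrocyte markers was 757, 773 and 714 in WT and 813, 734 and 718 in HET. Kcnj4 (15.9 to 18.6 against 15.8 to 21.7), Kcnj2 (5.32 to 5.75 against 4.07 to 5.54) and Kcnj11, the neuronal subunit of ATP-sensitive channels (4.65 to 5.24 against 3.87 to 4.95), also overlapped.

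Leak channels of the Kcnk subfamily set the resting potential. Kcnk2, a channel opened by stretch and lipids, was the 1 member with every HET library above every WT library, at 12.8, 12.8 and 12.0 against 13.4, 14.5 and 13.9. Means were 12.5 ± 0.432 and 13.9 ± 0.562 (SD, n = 3 each), and the log2 difference was 0.14 (SE 0.0727, 95% interval -0.02 to 0.30). Kcnk3, an acid-sensitive leak channel (chromosome 5, 30588170 to 30625270), lay apart in the other direction, at 5.35, 4.72 and 4.26 against 4.0, 3.97 and 3.74 (-0.23, SE 0.102, 95% interval -0.46 to -0.00). It overlaps the opposite-strand model Gm9899. Kcnk9, the closest relative of Kcnk3, did not separate (4.99 to 6.40 against 5.38 to 6.21). Kcnk1 was the highest leak channel gene at 33.9, 40.3 and 36.4 against 38.6, 36.7 and 39.2, and Kcnk10 (5.46), Kcnk12 (4.21), Kcnk13 (3.59) and Kcnk4 (2.37), by mean level, had log2 differences between -0.03 and 0.02.

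Channels gated by calcium or sodium included Kcnma1, the large-conductance pore gene, at 33.9, 29.6 and 31.8 in WT and 25.8, 33.4 and 29.0 in HET (log2 difference -0.11, SE 0.0971). The difference ran from -0.03 without HET 1 to -0.21 without HET 2. Its neuronal auxiliary gene Kcnmb4 was at 16.4, 15.4 and 13.6 against 14.2, 12.9 and 12.7 (-0.18, SE 0.0873), with HET 1 above WT 3. Kcnmb4 is overlapped on the opposite strand by the noncoding Kcnmb4os1 and Kcnmb4os2, at 7.94 to 9.29 and 7.04 to 9.06. Without knowing whether counting used the strand, reads of the 3 cannot be told apart. Of the small-conductance genes, whose channels carry the afterhyperpolarization that follows a spike, Kcnn2 lay apart at 14.4, 14.0 and 15.8 against 12.7, 13.4 and 13.0 (-0.16, SE 0.0756, 95% interval -0.33 to 0.00), while Kcnn3 (3.85 to 4.37 against 3.71 to 4.12) and Kcnn1 (2.88 to 3.54 against 3.07 to 3.82) overlapped. Kcnn2 overlaps the opposite-strand model A330093E20Rik. The sodium-activated Kcnt2 was at 29.4, 32.8 and 23.9 against 29.0, 26.0 and 30.0, and Kcnt1 at 2.97 to 4.14 against 2.94 to 4.39. The noncoding Kcnq1ot1, an imprinted antisense transcript of Kcnq1, was close to the level rule at 1.00, 1.07 and 1.33 against 1.37, 1.63 and 1.08 (0.14, SE 0.138).

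**Figure D5:**
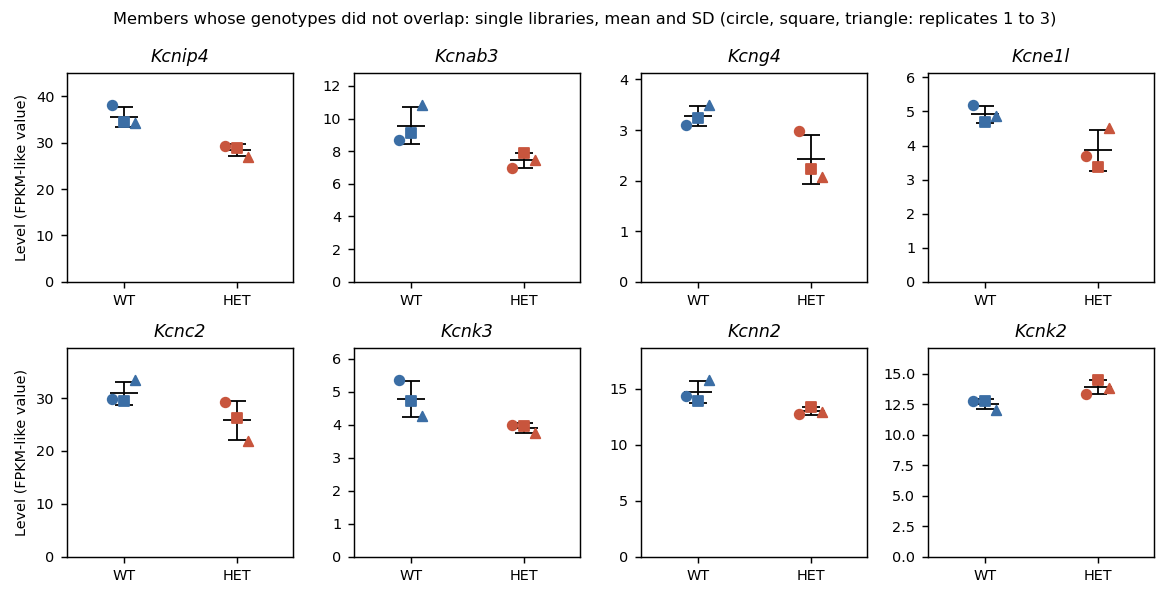
Level of the 8 Kcn genes whose genotypes did not overlap, each point a library (blue, WT; red, HET; circle, square and triangle, replicates 1 to 3), with the mean and SD of 3 libraries in black and axes from 0. The gap between genotypes is clear in Kcnip4 and narrow in Kcnc2, Kcng4 and Kcne1l, where 1 HET library sits just under the WT points.

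Some members lie next to each other in the genome. Kcnj9 and Kcnj10 are 11.9 kb apart on chromosome 1, Kcnj16 and Kcnj2 38.2 kb apart on chromosome 11, Kcna3 and Kcna2 52.8 kb apart on chromosome 3, and Kcna1 and Kcna6 62.5 kb apart on chromosome 6. The log2 differences within these pairs were -0.06 and -0.15, -0.00 and -0.17, -0.08 and -0.15, and -0.12 and 0.02, and their genotypes overlapped in all 8 genes.

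Genes that work with potassium channels but do not carry the Kcn stem were listed separately, 45 in all, of which 41 met the level rule. Of the 41, 0 passed the adjusted test, 0 had an unadjusted p under 0.05 in limma, 29 had a difference below 0 and 12 above, and the median was -0.04. Over all genes tested 3.69% had an unadjusted p under 0.05, 50.0% were below 0 and 8.52% lay apart. Atp1b1 and Ank3 were the 2 partner genes apart. Atp1b1, a beta subunit of the sodium-potassium pump, was at 436, 396 and 433 in WT and 354, 392 and 380 in HET (log2 difference -0.17, SE 0.0830), and Ank3, the ankyrin that anchors Kcnq channels at the axon initial segment, at 40.9, 37.6 and 43.0 against 36.8, 37.6 and 37.0 (-0.12, SE 0.0700). WT 2 and HET 2 were equal for Ank3 at this rounding, so its separation was marginal. The hyperpolarization-activated channel gene Hcn2 was at 23.7, 18.6 and 18.4 against 18.6, 17.6 and 11.9 (-0.33, SE 0.167), with HET 3 again the lowest. Its difference was -0.14 without HET 3 and -0.12 with the thalamus covariate. Dpp6 and Dpp10, auxiliary proteins of Kcnd channels, had differences of -0.08 and -0.02, the GABA-B receptor gene Gabbr2 and the regulator Rgs7bp of -0.14 and -0.12, and Lgi3 of the axonal Kcna complex of -0.15. The other partner genes named were Pex5l (-0.11, SE 0.0814), Atp1b2 (-0.12), Amigo1 (-0.06), Vapb (-0.04), Akap5 (0.06), Abcc8 (0.03), Abcc9 (-0.04) and Lrrc55 (0.04), whose genotypes overlapped.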

How the data were processed

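RNA of the hippocampus was sequenced from 3 WT and 3 HET libraries. Per the labels' protocols, total RNA was extracted with Trizol and libraries were made with the NEBNext Ultra II Directional kit. The submitters' processing notes name TopHat and mm10. The abundance program, its annotation and its strand setting remain not given in the sources used here. The authors deposited 1 log2 value per gene and library. No header names the unit. None was below 0. Levels (2 raised to the deposited value, less 1) were read as FPKM because low values lay near whole steps, 1 step being the value of 1 fragment. In genes with 1 transcript, 64.1% to 68.9% of values under 3.5 steps, the smallest left out, lay within 0.15 of a whole step. The depth of each library was set to give the best alignment of these same values, so this share is no independent check. Another unit scaled by length would also give steps, so the unit remains a reading.

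Genes at 1 or more in at least 3 libraries entered a limma model (version 3.58.1, R 4.3.3; genotype as the only term, trend and robust options) on the log2(value + 1) scale, which understates differences of low genes, and p-values were adjusted over the 13122 genes by Benjamini-Hochberg. Named were the 8 members per direction with the smallest p, the highest of each subfamily, and 2 genes per partner list. A few genes entered the fits and counts but are not reported here by name or in the figures. Members and lists were chosen with earlier results of these data known. Overlaps and positions are from RefSeq (GRCm38.p6, the assembly mm10 names), and figures were drawn with matplotlib 3.10.9.

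Fits were repeated with no filter, a mean of at least 5, median scaling, quantile normalization, a pseudocount of 0.1, no robust option, a replicate block, a thalamus marker covariate, an adjusted p of 0.1, and each library left out in turn.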

Additional observations from a re-analysis of the deposited data

How the results depend on the processing

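In limma, 0 members passed an adjusted p of 0.05 under every alternative run, the 6 single-library omissions and a threshold of 0.1 included. At an unadjusted p under 0.05 there were 3 to 12 members, the most without WT 2, where 5.43% of all genes were. Over all genes 0 to 8 passed with 1 library left out, 8 of them without HET 1. Members with genotypes apart numbered 11 to 24 with 1 library left out, where 15.5% to 21.7% of all genes lay apart, and 5 of 48 (10.4%, against 8.26% of all genes) at a mean of at least 5. In fits of all 69 members, 40 (without HET 3) to 50 (without HET 1) were below 0. A mean of at least 5 gave 31 of 48, and no filter 57 of 95 with a median of -0.02. Same-numbered libraries deviated in opposite directions (correlations -0.208, -0.247 and -0.157 across genes), and none correlated best with its own number. These correlations do not show whether same-numbered libraries were handled together. WT 2 and HET 2 held 14 and 3 values above 0 and under 0.001, where the other libraries held 2199 to 2609 each. The reason was not tested. The replicate block left 0 members passing and the median at -0.05, with 4 members at an unadjusted p under 0.05.

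Named log2 differences changed sign in 43 of 621 values, among them Kcnj10 and Atp1b2 with the covariate, and the cause was not tested. Kcnt2 was at 0.0097 with quantile normalization and Kcnh7 at -0.0101 with median scaling. Values with the thalamus covariate rest mainly on HET 1 against WT. With the thalamus covariate the values were Kcnv1 -0.0766, Kcnf1 -0.11, Kcnab2 0.11, Kcnh7 -0.0427, Kcnj10 0.0844, Kcnt2 0.0169, Kcnmb4os1 0.0939, Vapb 0.0287, Lrrc55 -0.11, Akap5 -0.0611 and Atp1b2 0.11. With 1 library left out, differences ran from -0.59 to 1.14 for Kcne2, -0.11 to 0.0268 for Kcnab2, -0.0005 to 0.24 for Kcnf1, -0.0797 to 0.071 for Kcnh7, -0.0245 to 0.0791 for Kcnip3, -0.0054 to 0.12 for Kcnk1, -0.0737 to 0.0417 for Kcnmb4os1, -0.0386 to 0.0577 for Kcns2 and -0.13 to 0.0913 for Kcnt2. Among partners they ran from -0.0015 to 0.0837 for Abcc8, -0.0989 to 0.0017 for Abcc9, -0.0437 to 0.14 for Akap5, -0.13 to 0.0056 for Amigo1, -0.23 to 0.11 for Dpp10 and -0.0603 to 0.12 for Lrrc55. The depth is an estimate, so no counting interval is given. It limits genes near the level of 1, such as Kcne4 and Kcnq1ot1.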
